A study of Schizosaccharomyces pombe with 8 samples.

Results

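The 10 genes described here encode the iron permease, oxidase and reductase, the siderophore transporters and synthesis enzymes, and 2 iron regulators of the fission yeast Schizosaccharomyces pombe. They were taken by gene symbol (fip1, fio1, frp1, str1, str2, str3, sib1, sib2, fep1 and php4) from the 2899 genes that carry a single symbol in the probe table, and each was represented by 1 probe set. Messenger RNA was measured on 8 Affymetrix arrays, 4 from cultures of a wild-type strain and 4 from cultures of a strain deficient in zfs1, the gene of a zinc finger protein that binds mRNA and destabilises it. Cultures of both were kept at 30 °C in Edinburgh minimal medium with adenine, histidine, leucine, lysine and uracil at 50 mg/l each, and were harvested at an absorbance of 1.0. The labels name no added iron and no chelator, no other allele of either strain, and do not say how many clones stand behind the deficient strain. The comparison asks how transcript levels differ between cells with and without zfs1.

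Yeast cells take up iron along 2 routes. In the reductive route a ferric reductase (Frp1) frees ferrous iron at the cell surface, and a multicopper oxidase (Fio1) hands it to the permease (Fip1) in a joint complex. In the other route the cell makes the siderophore ferrichrome with Sib1 and Sib2 and takes up iron-loaded siderophores through the Str transporters. The GATA factor Fep1 represses the uptake genes when iron is plentiful, and Php4 represses iron-using genes through the CCAAT-binding complex when iron is scarce.

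Signals are on the log2 scale, and a difference is zfs1-deficient minus wild type. The zfs1 transcript lay at 10.51 ± 0.10 (SD, n = 4) in wild type and at 4.14 ± 0.45 (SD, n = 4) in the deficient strain, so that each array matched its label. The 17 reporter controls, read as background, had array medians of 3.07 to 3.47 in wild type and 3.40 to 4.31 in the deficient strain. Of 11 tested markers of mating and meiosis, 2 passed the test as higher, spo6 (1.59 ± 0.31, SE) and isp3, and 0 fell, and their part in the results below was not tested. isp3 lay above the reporter controls on 1 of 8 arrays, a deficient one, and kept its call in 1 of 8 fits with an array left out, so no size is given for it. Of 4969 probe sets tested, 287 (5.78%) passed limma at a Benjamini-Hochberg adjusted p under 0.05. The 4 replicate numbers were taken to pair the cultures, which the labels do not state. In the fit that has this replicate block 1201 (24.2%) passed. The replicate 4 arrays of both strains stood apart from the others, with array weights of 0.23 and 0.18 against 0.56 to 6.55, and some results are also given without them.

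Of the 9 iron genes that could be tested, 1 fell without zfs1, the permease gene fip1, and 0 rose, against 5.78% of all probe sets called in either direction, 2.21% lower and 3.56% higher. With the replicate block 2 of the 9 were called (22.2%), fip1 lower and the transporter gene str2 higher, a share near the 24.2% of all probe sets (12.8% lower and 11.3% higher). The median difference of the 9 was -0.21, beside -0.01 over all tested probe sets. The 10th gene, str3, had a value on every wild-type array and on 0 of the 4 deficient arrays, and could not be tested. The repressor genes fep1 and php4 differed by -0.05 and 0.04.

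**Figure D1:**
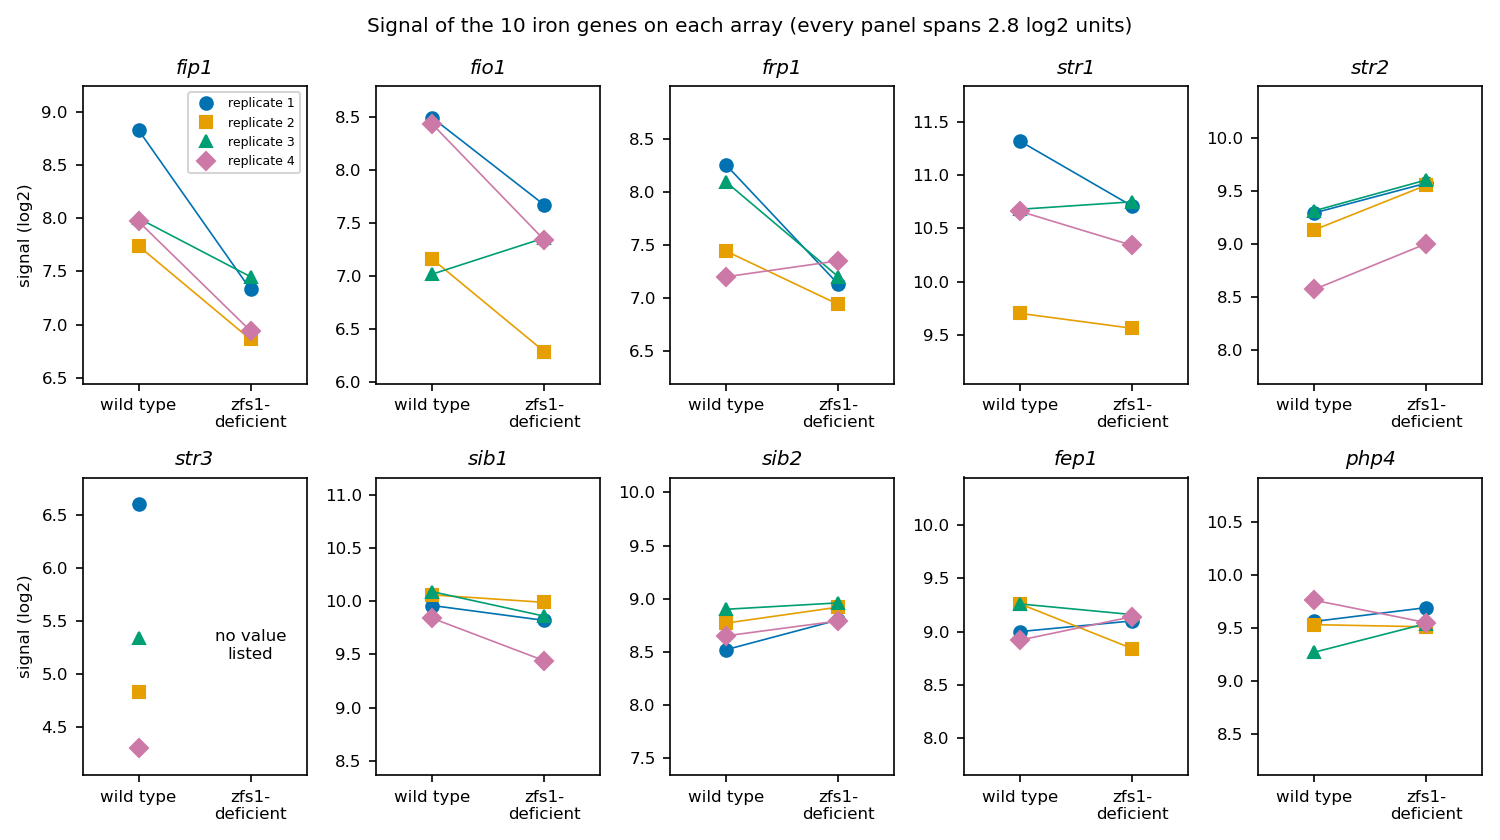
Signal (log2) of each iron gene on the 8 arrays, wild type at the left and zfs1-deficient at the right of each panel. Colours and markers stand for the replicate number and lines join same-numbered cultures. The fip1 signals of the strains do not overlap, 7.74 to 8.83 in wild type and 6.86 to 7.45 in the deficient strain, and str3 has no value in the deficient strain.

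The 3 genes of the reductive route had the most negative differences of the 9 tested members, and that of fip1 passed the test. fip1 (SPAC1F7.07C) encodes the permease that carries iron across the plasma membrane. Its signal was 8.83, 7.74, 8.0 and 7.97 in wild-type replicates 1 to 4. In the deficient strain it was 7.33, 6.86, 7.45 and 6.94. Every deficient culture lay below every wild-type culture, a separation in this direction shown by 7.71% of 4914 probe sets with 8 values. The fall was 0.99 ± 0.25 (SE, n = 4 per strain; limma, adjusted p = 0.0480), or 1.99-fold with a 95% interval of 1.36 to 2.91. Fewer cells with the transcript and less transcript per cell cannot be told apart in such cultures. The call was lost in each of the 8 fits that left out 1 array, where the difference ran from -1.12 to -0.76 and the adjusted p from 0.0575 to 0.118. It was also lost without both replicate 4 arrays (-0.98, adjusted p = 0.0639).

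fio1 (SPAC1F7.08), the multicopper oxidase gene, lies next to fip1 on chromosome I in the gene table of assembly ASM294v3. Its wild-type signals were 8.49, 7.16, 7.02 and 8.43 in replicates 1 to 4. Its deficient signals were 7.67, 6.29, 7.36 and 7.34. Wild-type replicates 1 and 4 were high and replicates 2 and 3 low, so that the strains overlapped, and 3 of 4 numbered pairs were lower in the deficient strain. The difference was -0.61 ± 0.41 (SE; 95% interval -1.53 to 0.31; limma, adjusted p = 0.449), and 0.0847 was the adjusted p with the replicate block. Whether fio1 and fip1 differed from each other in their strain difference was not tested.

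frp1 (SPBC1683.09C), the ferric reductase gene, had signals of 8.25, 7.44, 8.09 and 7.20 in wild type. The deficient cultures lay at 7.13, 6.94, 7.20 and 7.35. Wild-type replicates 1, 2 and 3 stood above all deficient cultures, replicate 2 narrowly, whereas replicate 4 was higher in the deficient strain by 0.15. The difference was -0.59 ± 0.24 (SE; 95% interval -1.12 to -0.05; limma, adjusted p = 0.203). With the replicate block it did not pass (limma, adjusted p = 0.0693). Without both replicate 4 arrays it was -0.83 and passed (adjusted p = 0.0446), in a fit that called 12.3% of all probe sets. frp2 (SPBC947.05C), named as another ferric reductase gene, was on the list of other uptake and storage genes. It lay at 6.53 ± 0.18 (SD, n = 4) in wild type and at 5.96 ± 0.14 (SD, n = 4) in the deficient strain. The strains did not overlap, as for 7.71% of probe sets with 8 values in this direction. The deficient frp2 signals of 5.88, 5.81, 6.09 and 6.07 were dim, with the brightest reporter control at 5.75, 5.70, 5.68 and 4.93 on those arrays. The frp2 difference of -0.57 ± 0.17 (SE) did not pass (limma, adjusted p = 0.102).

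**Figure D2:**
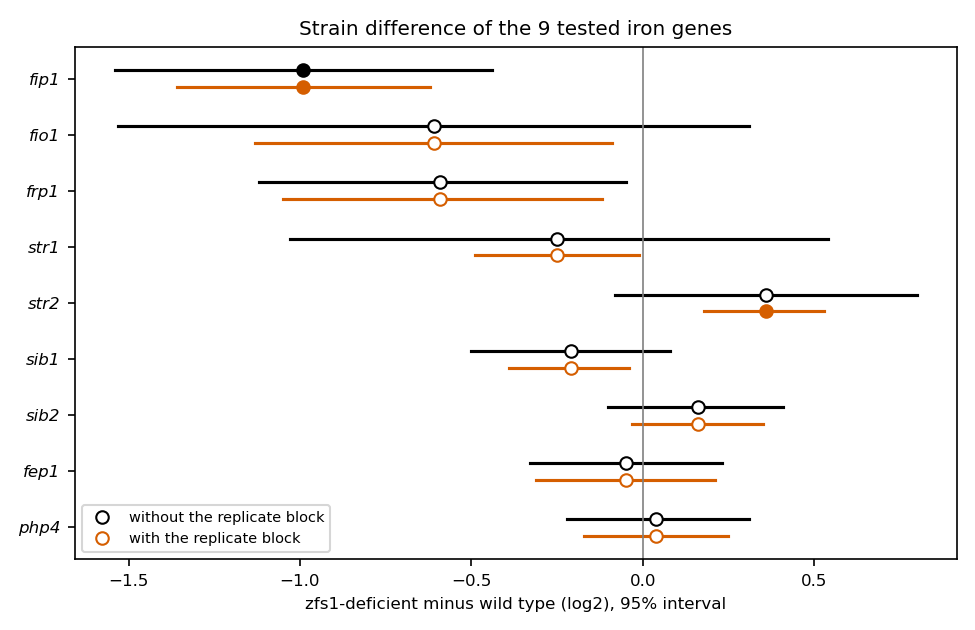
Strain difference (zfs1-deficient minus wild type, log2) of the 9 tested iron genes with its 95% interval, without (black) and with (orange) the replicate number as a block. Filled points passed limma at an adjusted p under 0.05: fip1 at -0.99 in both fits and str2 at 0.36 with the block.

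Of the 3 siderophore transporter genes, 0 passed without the block, str2 passed with it and str3 could not be tested. str1 (SPBC4F6.09), a ferrichrome transporter gene, had wild-type signals of 11.32, 9.70, 10.68 and 10.66. Its deficient signals were 10.71, 9.56, 10.75 and 10.34. Replicate 2 was the lowest culture in both strains, and the spread between cultures (SD of 0.67 and 0.55) exceeded the difference of -0.25 ± 0.35 (SE; 95% interval -1.03 to 0.54; limma, adjusted p = 0.743). With the replicate block the adjusted p was 0.115.

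str2 (SPCC61.01C), of the same transporter family, differed the other way. It lay at 9.29, 9.13, 9.31 and 8.57 in wild type. In the deficient strain it lay at 9.57, 9.55, 9.60 and 9.0. The deficient culture was higher in 4 of 4 numbered pairs, by 0.28 to 0.43, while replicate 4 was the lowest in both strains and made the groups overlap. The difference of 0.36 ± 0.20 (SE; limma, adjusted p = 0.343) passed with the replicate block, with an SE of 0.07 (limma, adjusted p = 0.0130). It also passed without both replicate 4 arrays, at 0.33 (limma, adjusted p = 0.0440), in a fit that called 12.3% of all probe sets. A higher value in all 4 pairs was found for 20.8% of the probe sets with 8 values, and for 2 of the 9 iron genes, str2 and sib2.

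str3 (SPAC1F8.03C), which encodes a transporter also known to take up heme, gave wild-type signals of 6.60, 4.83, 5.34 and 4.30. No value is listed for it on the 4 deficient arrays. It was the only one of 4994 yeast probe sets with 4 wild-type values and no deficient value, and 0 showed the reverse. A further 5 probe sets had no deficient value and 1 to 3 wild-type values, and 9 had no wild-type value and 1 to 3 deficient values. Its wild-type signal exceeded the brightest reporter control in replicates 1 and 3, where that control lay at 4.81 and 4.65, and lay below it in replicates 2 and 4, at 5.11 and 4.88. The sources used here do not say what a missing value stands for. On the deficient arrays 379 values below the lowest str3 value are listed, down to -5.49. Whether a missing value marks a signal lower still was not tested. The 80 probe sets with any missing value were mostly dim, with a median of 4.55 for their highest signal, and str3 ranked 11th among them by that measure. No fold or test is therefore given for str3.

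Of the 10 protein-coding genes nearest to str3, 5 to each side in the ASM294v3 order, 3 were measured under a name, and 2 of these passed the test as higher. isp3 (SPAC1F8.05), a spore wall gene that lies 2 genes away, was near background as given above (limma, adjusted p = 0.0498). The flocculin gene pfl8 (SPAC1F8.06), which lies 3 genes away, rose from 9.57 to 11.63, by 2.06 ± 0.35 (SE, n = 4 per strain; limma, adjusted p = 0.0107). ght3 (SPAC1F8.01), of the hexose transporter family and 2 genes away on the other side, differed by -0.11 (adjusted p = 0.880). Around all 10 iron genes together 41 neighbours were measured and 4 were called, fip1 as the neighbour of fio1 among them, beside 5.78% of all probe sets. These neighbours were chosen by position after the values of str3 were seen.

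The siderophore synthesis genes are neighbours on chromosome I and went apart in value, neither passing the test. sib1 (SPAC23G3.02C), the peptide synthetase gene of ferrichrome, lay at 9.96, 10.06, 10.09 and 9.84 in wild type. In the deficient strain it lay at 9.82, 9.99, 9.86 and 9.44. It was lower in 4 of 4 pairs, by 0.07 to 0.40, as were 25.1% of the probe sets with 8 values, and the difference was -0.21 ± 0.13 (SE; 95% interval -0.50 to 0.08; limma, adjusted p = 0.397). sib2 (SPAC23G3.03), the ornithine oxygenase gene, lay at 8.52, 8.77, 8.90 and 8.65 in wild type and at 8.80, 8.92, 8.96 and 8.79 in the deficient strain. It was higher in 4 of 4 pairs, by 0.06 to 0.28, with a difference of 0.16 ± 0.11 (SE; 95% interval -0.10 to 0.41; limma, adjusted p = 0.484). With the replicate block the adjusted p was 0.0775 for sib1 and 0.199 for sib2.

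Neither repressor gene passed the test. fep1 (SPAC23E2.01), the GATA repressor of the uptake genes, lay at 9.0, 9.26, 9.26 and 8.92 in wild type and at 9.10, 8.84, 9.16 and 9.14 in the deficient strain. Its difference was -0.05 ± 0.12 (SE; 95% interval -0.33 to 0.23; limma, adjusted p = 0.869), with 2 pairs lower and 2 higher. php4 (SPBC16E9.01C), which is itself repressed by Fep1 when iron is plentiful, lay at 9.56, 9.53, 9.27 and 9.76 in wild type and at 9.69, 9.51, 9.54 and 9.55 in the deficient strain. Its difference was 0.04 ± 0.12 (SE; 95% interval -0.22 to 0.31; limma, adjusted p = 0.884), again with 2 pairs each way. The intervals of both exclude differences as large as that of fip1, and do not exclude changes of 0.2 in either direction.

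Of the tested iron genes, fio1, str1, frp1 and fip1 varied most between cultures in wild type, and fio1 and str1 in the deficient strain. The wild-type SD was 0.80 for fio1, 0.67 for str1, 0.50 for frp1 and 0.48 for fip1, against a median of 0.19 over all tested probe sets. Among probe sets whose wild-type mean lay within 0.5 of theirs, str1 exceeded 99.5% in SD, fio1 97.7%, fip1 87.8% and frp1 85.4%. In the deficient strain the same figures were 97.4% for str1, 92.6% for fio1, 50.9% for fip1 and 21.2% for frp1. For wild type and the deficient strain in turn, str2 exceeded 83.7% and 77.7% of such probe sets, and sib1 23.3% and 65.8%. The regulators fep1 and php4 and the other synthesis gene, sib2, exceeded 12.7% to 53.9% over both strains.

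**Figure D3:**
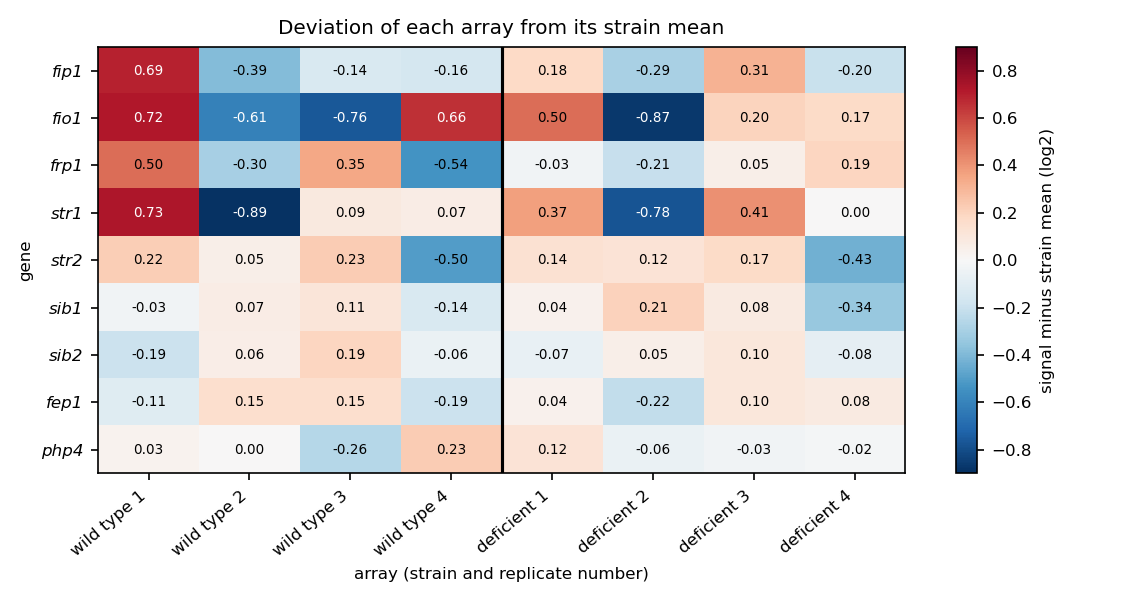
Signal minus the mean of its strain (log2) for the 9 iron genes with 8 values, 1 column per array. Wild-type replicate 1 is high for fip1, fio1, frp1 and str1 (0.50 to 0.73), and replicate 2 is low for the same genes in both strains (-0.89 to -0.21).

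With each strain's mean taken off, Pearson's r over the 8 arrays was 0.86 between fip1 and str1 (0.87 without the 2 wild-type arrays on which fip1 deviated most), and the arrays fell in the same order for both genes. Among 2863 genes ranked by likeness to fip1, str1 was 13th, fio1 120th with r of 0.66 and frp1 183rd with r of 0.61, and without the same 2 arrays these fell to 0.48 and 0.12. The 5 genes most like fip1 were chs1, ubp16, bgs1, sen2 and jnm1, with r of 0.99 to 0.88. The 5 most like str2 were erg7, srp54, dis1, mok13 and pst3, each with r of 1.00, or 0.90 to 0.99 without the replicate 4 arrays. Over the 8 arrays sib1 was the member nearest to str2, but only 627th of 2863 genes (r = 0.81, -0.21 without the replicate 4 arrays). Without the replicate 4 arrays frp1 was the nearest member (r = 0.96, 0.48 over the 8 arrays), followed by str1 (0.78, 0.10 over the 8 arrays). These values are descriptions, since all genes of an array share its culture, amplification and hybridisation.

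Genes that work with the regulators included 1 that passed, the nuclear export receptor gene crm1. Of 8 listed partners 7 were measured, and 1 rose and 0 fell, beside 5.78% of all probe sets. crm1 (SPAC1805.17), whose protein is known to carry Php4 out of the nucleus among many other cargoes, rose from 10.89 ± 0.03 to 11.37 ± 0.12 (SD, n = 4), by 0.49 ± 0.07 (SE; limma, adjusted p = 0.00776). It kept its call in all 8 fits with 1 array left out. The CCAAT-binding subunit genes php2, php3 and php5 differed by 0.16, -0.02 and -0.13. The corepressor genes tup11 and tup12, whose proteins act with Fep1, differed by -0.04 and -0.14. grx4, a glutaredoxin gene whose protein binds both Fep1 and Php4, differed by -0.10. The adjusted p of these 6 lay between 0.468 and 0.969.

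Of 5 other uptake and storage genes 3 were measured and 0 passed in limma, with 2 lower at an unadjusted p under 0.05, beside 20.6% of all probe sets in either direction. These were frp2 and pcl1 (SPBC1683.10C), a vacuolar iron transporter gene that lies next to frp1 and is known as a target of Php4. pcl1 differed by -0.21 ± 0.08 (SE; adjusted p = 0.199), with no overlap between strains, as for 7.71% of probe sets with 8 values in this direction. It passed with the replicate block (adjusted p = 0.0343), as did 24.2% of all probe sets. abc3, a vacuolar transporter gene under Fep1 control, differed by 0.07 (adjusted p = 0.878).

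Iron-using genes are the class that Php4 represses. Of 28 listed genes 21 were measured and 0 passed in limma. At an unadjusted p under 0.05, 2 were higher and 1 was lower, and the median was 0.06. Over all probe sets 20.6% had such a p. With the replicate block 3 rose and 4 fell, beside 24.2% of all probe sets called (11.3% higher and 12.8% lower). The smallest unadjusted p values were those of sdh3, a succinate dehydrogenase subunit gene, at 0.17 ± 0.05 (SE; adjusted p = 0.0843), and rli1, an iron-sulphur ribosome recycling factor gene, at -0.16 ± 0.06 (SE; adjusted p = 0.138). Both passed with the replicate block (adjusted p = 0.0160 and 0.0475). The members farthest from 0, named after their values were seen, were the heme catalase gene ctt1 at 0.62 (adjusted p = 0.212) and the glutamate synthase gene glt1 at -0.52 (adjusted p = 0.358). With the replicate block ctt1 and glt1 both passed (adjusted p = 0.0267 and 8.79e-04). Without both replicate 4 arrays glt1 was at -0.56 and passed (limma, adjusted p = 0.00220), in a fit that called 12.3% of all probe sets. In the same fit ctt1 was at 0.64 and did not pass (limma, adjusted p = 0.153).

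Copper is needed by the Fio1 oxidase, and 9 of 9 listed genes of copper supply were measured. In limma 0 passed. At an unadjusted p under 0.05, 1 was higher and 3 were lower, beside 20.6% of all probe sets in either direction, and the median was 0.09. ccs1, the copper chaperone gene of superoxide dismutase, differed by -0.19 ± 0.06 (SE; adjusted p = 0.110), and sod1, the dismutase gene itself, by 0.17 ± 0.06 (SE; adjusted p = 0.132). Without both replicate 4 arrays ccs1 passed at -0.21 (limma, adjusted p = 0.0404), as did 12.3% of all probe sets, and sod1 did not at 0.19 (limma, adjusted p = 0.0623). With the replicate block 1 rose and 2 fell, sod1 (adjusted p = 0.0361), ccs1 (0.0213) and the copper transporter gene ctr5 (0.0170), beside 24.2% of all probe sets called in that fit. The copper-sensing factor gene cuf1, whose protein is known to repress the iron uptake genes when copper is scarce, differed by 0.09 (adjusted p = 0.659).

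**Figure D4:**
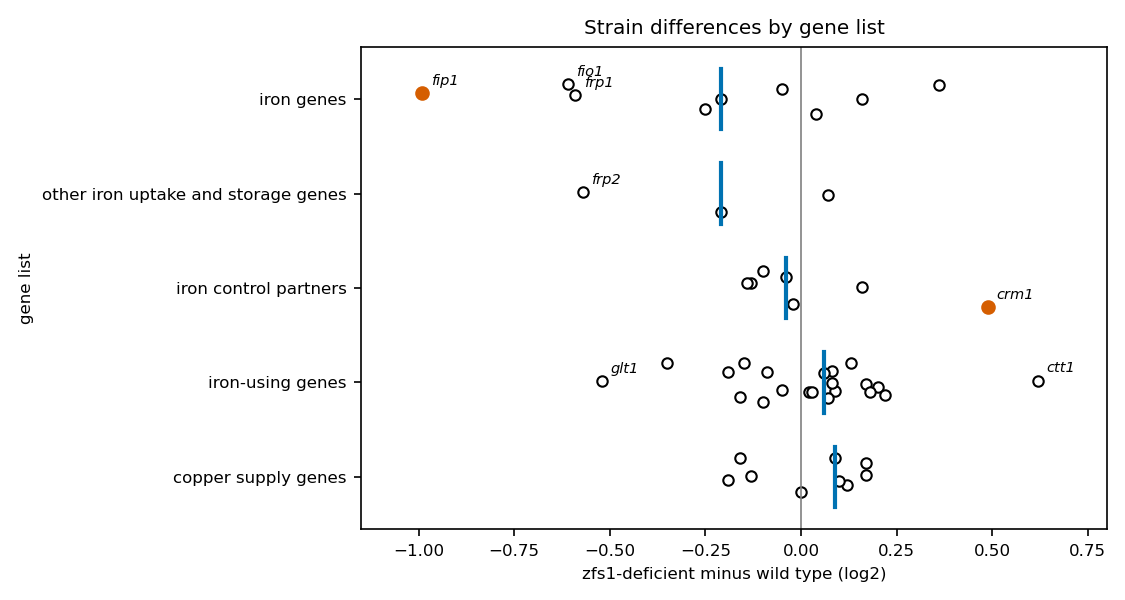
Strain difference (zfs1-deficient minus wild type, log2) of each tested gene by list, with height within a list only to separate points. Orange points passed limma without the block (fip1 at -0.99 and crm1 at 0.49), and blue bars are list medians, -0.21 for the iron genes and 0.06 for the iron-using genes.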

How the data were processed

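Total RNA from 8 cultures was hybridised to 1 array each, per the labels, and read with the GeneChip Operating Software. The authors deposited 1 value per probe set, taken here as log10 signal, a base inferred from array medians of 2.891 to 2.903 and not given in the sources used here, as is the scaling. Another base would scale all log2 values by 1 factor. The labels name a nematode array, but the probe sets are paired with fission yeast genes. Values were turned into log2, and 17 reporter controls were left out. Of 4994 probe sets, those with at least 2 values per strain (4969) were tested with limma 3.58.1 in R 4.3.3 (lmFit, eBayes with a variance trend, 2-sided, Benjamini-Hochberg over all tested). Missing values (0.571%) were left missing. The number of arrays limits the precision. The script was tested on simulated data. The members and lists were chosen with earlier results of these data known.

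Symbols came from the probe table, updated by gene ID through the gene table of ASM294v3 (2913 of 2916 found). Each gene's brightest probe set was used. The listed gene cia1 is a histone chaperone gene by its ID and was dropped, and sdh4 is now listed as tim18. The rule named all members, every gene called in a list, the 2 smallest p values of the iron-using and copper lists, every measured partner and other uptake gene, and the 5 genes most like a called member. The labels do not say that a replicate number marks a shared day, but over all probe sets the deviations of a wild-type and a deficient array of equal number correlated at 0.37, 0.33, 0.26 and 0.70 for numbers 1 to 4, all above the 0.1 required, so the replicate number was taken to pair cultures. Wild-type 1 with deficient 3, of unlike number, also reached 0.41, and wild-type 3 with deficient 1 reached 0.25. Wild-type 2 with deficient 3 and wild-type 3 with deficient 2 each reached 0.12, also above 0.1. The remaining pairs of unlike number lay at 0.06 or below. Alternatives were array median centring, quantile normalization, a filter on the dimmest 25%, an offset of 64, no variance trend, array weights, the replicate block, and left-out arrays. Sequences and promoter motifs were not analysed here. Figures were drawn with matplotlib 3.10.9.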

Additional observations from a re-analysis of the deposited data

Results flagged for a closer look

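The deficient replicate 4 culture stood apart from the other 3 of its strain for str2, at 9.0 against 9.55 to 9.60, a gap of 0.915 of the range. Of 41 groups of 4 arrays examined among the iron genes, zfs1, the control partners and the other uptake genes, this was the 1 group with such a gap, and chance gives about 1 in 20. The wild-type replicate 4 culture was also the lowest for str2, at 8.57.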

How the results depend on the processing

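The zfs1 difference kept its call in the 15 alternatives that gave it a value; the filter on the dimmest 25% removed it. The count of called iron genes, 1 in the fit reported, was 3 with array weights, 2 with the replicate block and 2 without both replicate 4 arrays. It was 0 without a variance trend, with an offset of 64, without the dimmest 25% of probe sets (which removes fip1, fio1 and frp1) and with any 1 array left out (0 to 0). Array weights called 4 copper genes, 10 iron-using genes, 2 control partners and 1 other uptake gene. The replicate block called 3, 7, 1 and 1 of these lists, no variance trend 1 other uptake gene, and leaving out both replicate 4 arrays 1 copper gene and 2 iron-using genes. Over all probe sets 287 became 1517 with weights, 1201 with the block, 609 without both replicate 4 arrays and 103 to 306 with 1 array left out. The sign of uncalled differences turned for fep1 (0.02 with array weights), and with 1 array left out fep1 ran from -0.11 to 0.02 (positive without deficient replicate 2), php4 from -0.04 to 0.12 (negative without wild-type replicate 3) and str1 from -0.55 to 0.01 (positive without deficient replicate 2). Apart from str2, the block changed no call among the iron genes. The cause was not tested, other than for the filter. Dim signals limit str3 and frp2, and fip1, fio1 and frp1 were also among the dimmest 25%. With the offset of 64 the fip1 difference was -0.75 and did not pass (limma, adjusted p = 0.0540).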
